A study of Mus musculus with 6 samples.

Results

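The genes described here are the Wnt ligands, their Frizzled and other receptors, the R-spondins, the secreted Wnt inhibitors and 3 genes at the transcriptional end of the pathway. They were chosen by symbol: every Wnt, Fzd, Sfrp and Dkk gene followed by a number, and Frzb, Wif1, Lrp5, Lrp6, Ror1, Ror2, Ryk, Rspo2, Rspo3, Axin2, Lef1 and Tcf7. The rule found 49 of the 27502 genes in the tables, made up of 19 ligands, 11 Frizzled entries, 5 other receptors, 2 R-spondins, 9 inhibitors and the 3 genes Axin2, Lef1 and Tcf7. Fzd10os, counted among the Frizzled entries, is a noncoding RNA gene beside Fzd10 on the opposite strand that matched by name. The samples were cultures of vascular smooth muscle, the contractile layer of the vessel wall, from mouse aorta. RNA of 3 samples treated with siRNA against Ezh2 (siEzh2) was compared with RNA of 3 control samples, all taken at 48 hours. Not given in the sources used are the agent that control cells received, the siRNA sequence, and the strain and age of the mice. Nor do the labels tell whether replicates were separate cultures or animals, so p-values reflect only the spread among these samples, and that spread may be technical.

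Wnt proteins are secreted, lipid-modified ligands that bind Frizzled receptors on the cell surface. Together with the co-receptors Lrp5 and Lrp6 they stabilise beta-catenin, which joins Tcf and Lef factors on DNA and switches on targets such as Axin2, itself a brake on the pathway. Through Ror and Ryk receptors they also act without beta-catenin. Secreted Frizzled-related proteins (Sfrp genes and Frzb) and Wif1 bind Wnt proteins outside the cell, several Dickkopf proteins (Dkk) block Lrp5 and Lrp6, and R-spondins keep Frizzled receptors on the surface. In the vessel wall the pathway is known for its part in smooth muscle growth, matrix production and calcification. Ezh2 is the main methyltransferase of Polycomb repressive complex 2, which writes the silencing histone mark H3K27me3 and is known to act at CpG-rich promoters.

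The values were FPKM, fragments per kilobase of transcript and per unit of sequencing depth, so levels can be set side by side between genes. Reads recovered from them summed to 18248440 to 18753124 per control sample and 16080005 to 17553744 per siEzh2 sample. At this depth 3 reads, the most that a count of 0 allows, equalled 0.16 to 0.186 CPM, where CPM is reads scaled to a common library size and the limit covers only counting error. Ezh2 (chromosome 6 from 47530139 to 47595341, minus strand, mm10) had 3.41, 3.59 and 3.88 FPKM in controls and 1.20, 1.09 and 1.05 FPKM in siEzh2 samples. It was 3.26 times lower in siEzh2 samples, with no overlap (adjusted p = 5.15e-05, limma with Benjamini-Hochberg adjustment). Genome-wide log2 values correlated at 0.992 or above between samples of a group and at 0.98 or below between groups. Of the smooth muscle markers, Acta2 was abundant, at 699 FPKM in control and 537 FPKM in siEzh2 samples, while Myh11 (1.83 and 1.12 FPKM) and Tagln (0.253 and 0.228 FPKM) were low in both groups. Of 7 tested smooth muscle markers 5 were called lower and 1, Cald1, higher (87.1 and 106 FPKM, adjusted p = 0.00131). Over all tested genes 22.7% were called lower and 24.1% higher. The summed FPKM of the 10 smooth muscle markers ran from 806 to 835 in control and from 652 to 688 in siEzh2 samples.

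Most lists of markers of other cell types had summed levels that did not overlap between the groups. Among single tested genes this was common, with 30.0% higher and 28.1% lower in every siEzh2 sample. The counts of called markers below stand beside 24.1% of all tested genes called higher and 22.7% called lower. In summed FPKM, epithelial and mesothelial markers ran from 4.53 to 5.41 in control and from 9.71 to 11.9 in siEzh2 samples, with 1 of 2 tested markers called higher. Schwann cell markers ran from 8.13 to 9.55 and from 4.81 to 5.49 (1 of 1 tested lower), and adipocyte markers from 29.4 to 30.2 and from 20.5 to 22.0 (3 of 3 tested lower). Macrophage and leukocyte markers ran from 17.2 to 20.6 and from 14.3 to 15.2 (2 of 4 tested higher, 2 lower), and endothelial markers from 4.33 to 4.63 and from 5.26 to 5.84 (1 of 2 tested higher, 1 lower). Fibroblast and adventitial markers ran from 341 to 363 and from 354 to 369, with 1 of 7 tested markers higher and 3 lower. Most of that sum was Ly6a (272 and 294 FPKM, not called). Pdgfra (28.6 and 37.5 FPKM) was the higher one, and Dpt (24.8 and 10.2 FPKM), Lum and Col14a1 were the lower ones. Within a list the levels were uneven. Mean FPKM in control and siEzh2 samples was 0.0040 and 0.0042 for Ptprc but 7.98 and 3.40 for Lyz2 and 2.01 and 0.621 for Csf1r, and 0.0119 and 0.0258 for Cdh1 but 3.83 and 9.29 for Krt19. Among endothelial genes it was 0.170 and 0.0789 for Pecam1, 0.417 and 0.932 for Vwf and 0.332 and 0.857 for Tek. The 2 tested endothelial markers were Kdr (1.11 and 1.55 FPKM, called higher) and Emcn (1.75 and 1.28 FPKM, called lower). Of the macrophage markers, Cd68 (5.77 and 6.90 FPKM) and Cd14 (2.72 and 3.51 FPKM) were called higher, and Lyz2 and Csf1r lower. The listed markers Cd3e, Epcam and Krt8 had no entry in the tables, for a reason not given. No marker with an entry was at 0 in all samples. The part of other cell types in the differences below was not tested, and in bulk RNA fewer cells of a type and less RNA per cell cannot be told apart.

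Of the 49 genes, 21 reached a mean of 1 FPKM in at least 1 group and were tested with limma on log2(FPKM + 1), a scale that understates the change of low genes. Wnt10a passed the filter only through the siEzh2 group, where it is high. At an adjusted p under 0.05, 6 of the 21 were higher in siEzh2 samples, beside 24.1% of all 11869 tested genes, and 7 were lower, beside 22.7%. The other 8 were not called. The higher genes were ligands (Wnt2, Wnt2b, Wnt10a), the receptor Ryk, the R-spondin Rspo3 and the inhibitor Sfrp2. The lower genes were Frizzled receptors (Fzd2, Fzd4, Fzd7, Fzd8) and inhibitors (Dkk3, Frzb, Sfrp1). No tested ligand was called lower and no tested Frizzled receptor was called higher. The median log2 fold change of the 21 tested genes was −0.05, beside 0.01 over all tested genes, and it was 0.01 with no filter on low values.

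**Figure D1:**
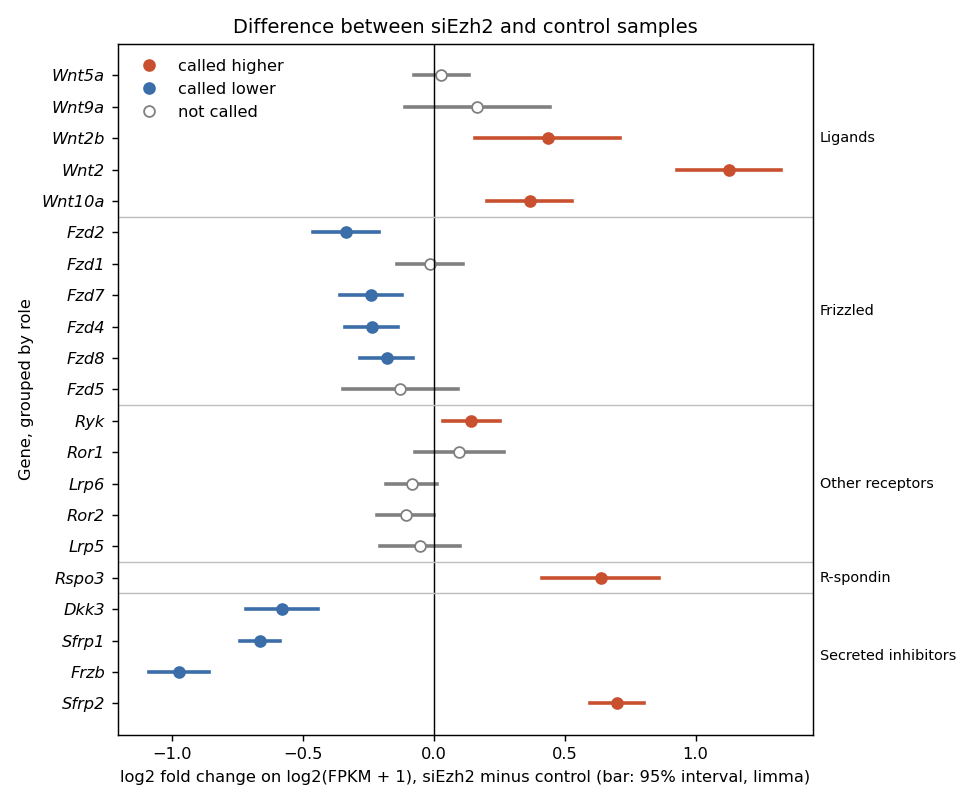
Log2 fold change of each tested gene on the log2(FPKM + 1) scale, siEzh2 minus control (x axis), with genes grouped by role (y axis). Points are limma estimates and bars their 95% intervals. Wnt2 lies farthest to the right at 1.13 and Frzb farthest to the left at −0.97. Of the 6 tested Frizzled receptors 4 are called lower, beside 22.7% of all tested genes.

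In 6 of the 21 tested genes every siEzh2 sample was above every control sample, beside 30.0% of all tested genes. In 9 of the 21 every siEzh2 sample was below every control sample, beside 28.1% of all tested genes. The 2 genes that did not overlap but missed the adjusted threshold were Lrp6 and Ror2, both lower.

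Of the 13 genes called by limma, those with the greatest change on the log2(FPKM + 1) scale were Wnt2, Frzb and Sfrp2, and their promoters are printed here because they stand on opposite sides of the comparison while all are CpG-rich. They were picked after their values had been seen. Each window runs 5′ to 3′ from 250 bases before to 50 bases after the RefSeq start (GRCm38.p6), and capitals mark each CG dinucleotide. The windows are chr6:18030396-18030695 on the minus strand for Wnt2, chr3:83766071-83766370 on the plus strand for Sfrp2 and chr2:80447347-80447646 on the minus strand for Frzb.
Wnt2: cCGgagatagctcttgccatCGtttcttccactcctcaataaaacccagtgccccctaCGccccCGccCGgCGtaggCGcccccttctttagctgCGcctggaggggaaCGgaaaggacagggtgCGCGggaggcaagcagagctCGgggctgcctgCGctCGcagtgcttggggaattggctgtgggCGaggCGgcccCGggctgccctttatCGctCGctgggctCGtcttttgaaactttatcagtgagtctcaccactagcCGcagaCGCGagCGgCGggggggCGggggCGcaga
Sfrp2: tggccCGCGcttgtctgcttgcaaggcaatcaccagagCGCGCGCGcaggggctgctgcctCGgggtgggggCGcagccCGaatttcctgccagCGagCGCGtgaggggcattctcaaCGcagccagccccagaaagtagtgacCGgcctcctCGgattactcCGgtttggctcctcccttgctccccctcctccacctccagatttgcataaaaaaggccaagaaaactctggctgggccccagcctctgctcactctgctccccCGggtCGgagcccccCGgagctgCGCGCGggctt
Frzb: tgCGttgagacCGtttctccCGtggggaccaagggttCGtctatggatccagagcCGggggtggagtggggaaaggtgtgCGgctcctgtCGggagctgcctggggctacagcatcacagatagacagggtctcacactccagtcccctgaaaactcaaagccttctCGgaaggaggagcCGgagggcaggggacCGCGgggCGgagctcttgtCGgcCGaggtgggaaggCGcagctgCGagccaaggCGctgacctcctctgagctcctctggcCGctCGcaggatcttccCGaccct

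The Wnt2 window held 27 CG dinucleotides, percentile 85.2 among the 32851 promoters in the RefSeq table. Sfrp2, also higher in siEzh2 samples, had 22 (percentile 77.7), and Frzb, which was lower, had 20 (percentile 74.4). RefSeq promoters were matched for 33 of the 49 genes, with 40 windows. Their median was 24.5 CG dinucleotides, with a range of 4 to 58, beside a median of 7 over all promoters, and 36 of the 40 windows were above that median. The core of the Tcf and Lef motif, CTTTGA searched on both strands, was in 17.5% of the 40 windows and in 16% of all promoters of this length. Chromatin marks were not measured in these samples.

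Ligands were a small class by level. Summed over all 19, Wnt transcripts came to 8.88, 9.33 and 7.90 FPKM in controls and 13.3, 13.1 and 12.7 FPKM in siEzh2 samples, with no overlap. The mean sum was 1.50 times higher in siEzh2 samples, at 13.1 ± 0.322 FPKM against 8.70 ± 0.731 (SD, n = 3 each). Of the 5 ligands tested, 3 were called higher, beside 24.1% of all tested genes, and none was called lower, beside 22.7%. Wnt10a is among the 3 and passed the filter only through the siEzh2 group. The others, 14 ligands, stayed under 1 FPKM in both groups.

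Wnt2, a ligand that acts mostly through beta-catenin, had 1.02, 0.874 and 1.29 FPKM in controls and 3.23, 3.53 and 3.72 FPKM in siEzh2 samples. The groups were far apart relative to their spread. Its mean was 3.29 times higher in siEzh2 samples (3.49 ± 0.250 against 1.06 ± 0.211 FPKM, SD, n = 3 each). On the log2(FPKM + 1) scale it rose by 1.13 (95% interval 0.93 to 1.33, adjusted p = 0.000201). On recovered reads, of which there were 133 over the control and 403 over the siEzh2 samples, the log2 fold change by limma-voom was 1.71, a scale without the added 1. The gene lies on chromosome 6 from 17988940 to 18030585, minus strand (mm10, ENSMUSG00000010797).

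Wnt10a (chromosome 1 from 74791516 to 74804179, plus strand), a ligand best known from tooth, skin and hair development, had 0.643, 0.540 and 0.698 FPKM in controls and 1.23, 1.13 and 0.931 FPKM in siEzh2 samples. The lowest siEzh2 value was above the highest control value. Its mean was 1.75 times higher (log2 fold change 0.37, SE 0.0666, adjusted p = 0.00574). Wnt2b (chromosome 3 from 104945272 to 104961921, minus strand), a close relative of Wnt2, had 1.15, 1.43 and 0.756 FPKM in controls and 1.76, 1.86 and 1.87 FPKM in siEzh2 samples. Control values spread widely, yet all lay below the siEzh2 values, and the mean was 1.65 times higher (log2 fold change 0.43, SE 0.114, adjusted p = 0.0223). The Wnt2b call was lost with no filter (adjusted p = 0.0624), without control sample 1 (0.0521) and without siEzh2 sample 1, 2 or 3 (0.0511, 0.0617 and 0.0628).

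Wnt5a, the ligand most tied to signalling without beta-catenin, was the most abundant Wnt transcript in the control samples, at 3.32, 3.51 and 3.11 FPKM. The siEzh2 samples had 3.36, 3.41 and 3.41 FPKM, inside the control range. Its log2 fold change was 0.03 (95% interval −0.08 to 0.13, adjusted p = 0.626), and its sign turned with quantile normalization and without control sample 3. Wnt9a had 1.48, 1.68 and 1.20 FPKM in controls and 2.18, 1.47 and 1.62 FPKM in siEzh2 samples, and the groups overlapped (log2 fold change 0.17, 95% interval −0.11 to 0.44, adjusted p = 0.277).

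The order of the ligands differed between the groups. Wnt5a made up 38.1% of the summed ligand FPKM in control and 26.0% in siEzh2 samples. Wnt2 made up 12.4% in control and 26.8% in siEzh2 samples, where its mean of 3.49 ± 0.250 FPKM and that of Wnt5a, 3.39 ± 0.0282, differed by less than the spread. Wnt9a went from 16.6% to 13.5%, Wnt2b from 12.6% to 14.0% and Wnt10a from 7.29% to 8.40% of the sum. These shares are descriptions and were not tested.

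**Figure D2:**
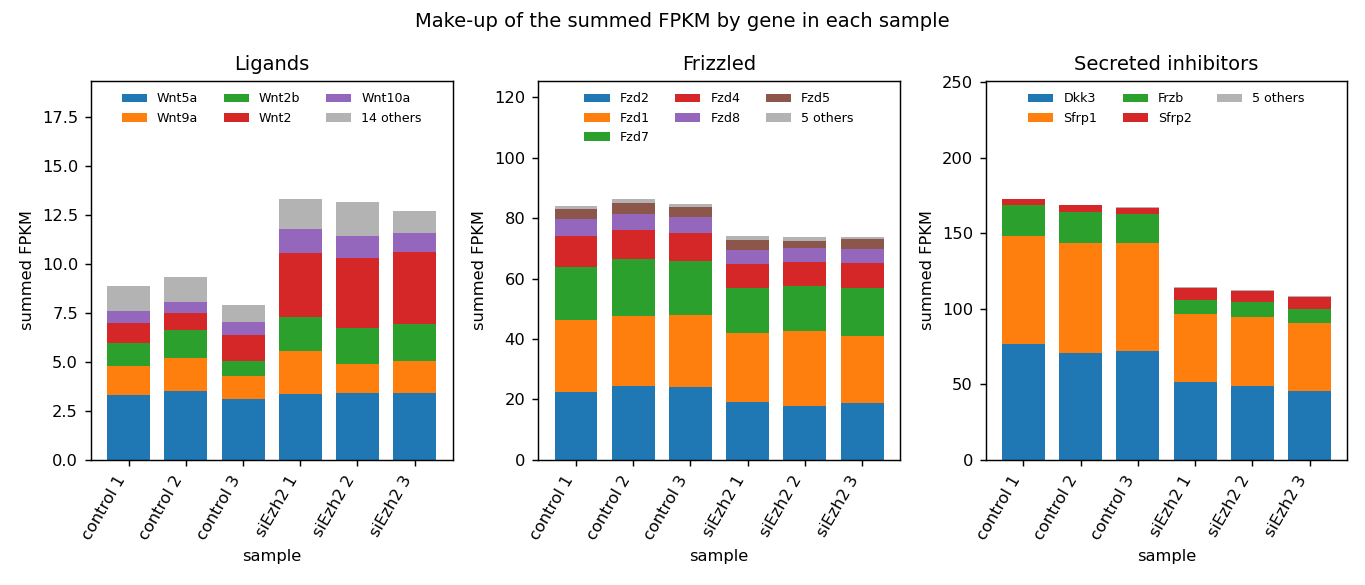
Summed FPKM (y axis) of the ligands, Frizzled receptors and secreted inhibitors in each of the 6 samples (x axis), with each tested gene as a coloured segment and the untested genes of the role together in grey. The segment of Wnt2 is larger in every siEzh2 sample than in any control sample, and Dkk3 and Sfrp1 make up most of the inhibitor bars.

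Mouse Wnt genes often lie in pairs. Within 50 kb of each other were Wnt6 and Wnt10a on chromosome 1 (6.19 kb apart), Wnt3a and Wnt9a on chromosome 11 (16.2 kb), Wnt9b and Wnt3 on chromosome 11 (24.3 kb), and Wnt10b and Wnt1 on chromosome 15 (11.7 kb). In the first pair, Wnt10a was called higher while its neighbour Wnt6 was near the limit of detection, with 5, 6 and 3 reads in controls and 2, 0 and 0 reads in siEzh2 samples. Wnt3 had 0, 6 and 1 reads in controls and 9, 9 and 10 reads in siEzh2 samples, and its neighbour Wnt9b was under 0.1 FPKM in both groups. Wnt3 was under the filter and had too few reads for limma-voom. In the FPKM fits with no filter and with the filter at 0.1 FPKM it was called higher (adjusted p = 0.0398 and 0.0412). Wnt3 passed the filter at 0.1 FPKM only through the siEzh2 group, with means of 0.0405 FPKM in control and 0.178 FPKM in siEzh2 samples. These calls rest on few reads.

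Ligands between 0.1 and 1 FPKM were examined on recovered reads with limma-voom, a test that could use genes with at least 10 reads in 3 samples. By this test 22.8% of the 14516 genes were higher and 23.5% were lower. Wnt11, a ligand of the noncanonical branch, had 11, 13 and 7 reads in controls and 20, 21 and 22 reads in siEzh2 samples. The groups did not overlap, and Wnt11 rose by 1.14 on the log2 scale (adjusted p = 0.0113, and at most 0.0179 over the alternatives), although 8.8% of its exon bases overlap the pseudogene Gm8398. Not every control sample had 10 reads of Wnt11, so it passed the limit only with the siEzh2 samples, where it is high. Wnt5b, at 0.306 and 0.405 FPKM in control and siEzh2 samples, was not called (adjusted p = 0.457). Mean levels in control and siEzh2 samples were 0.112 and 0.121 FPKM for Wnt4, 0.101 and 0.155 for Wnt10b, 0.115 and 0.0805 for Wnt16, and 0.0203 and 0.102 for Wnt8a. Wnt7a had 7, 10 and 2 reads in controls and 1, 3 and 0 reads in siEzh2 samples. Wnt1, Wnt3a, Wnt7b, Wnt8b and Wnt9b were under 0.1 FPKM in both groups.

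Frizzled receptors were expressed at much higher levels than the ligands. Their summed FPKM was 73.9 ± 0.0851 after siEzh2 against 85.0 ± 1.27 in controls (SD, n = 3 each), 1.15 times lower. Of the 6 tested, 4 were called lower, beside 22.7% of all tested genes, and none was called higher, beside 24.1%. Fzd2, Fzd4, Fzd7 and Fzd8 were 1.16 to 1.28 times lower, and Fzd1 and Fzd5 were not called. All 6 are membrane receptors that bind Wnt proteins through a cysteine-rich domain.

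Fzd2 had the greatest drop of the 6 Frizzled receptors above 1 FPKM. It had 22.4, 24.6 and 24.3 FPKM in controls and 19.2, 17.7 and 18.9 FPKM in siEzh2 samples, 1.28 times lower with no overlap (log2 fold change −0.34, SE 0.0517, adjusted p = 0.00303). Fzd2 (chromosome 11 from 102604396 to 102608058, plus strand) and Fzd1, nearly equal in control samples, were the most abundant Frizzled transcripts. Fzd1 had 24.0, 23.1 and 23.6 FPKM in controls and 22.9, 25.0 and 22.1 FPKM in siEzh2 samples. These groups overlapped, and the log2 fold change of −0.01 (95% interval −0.14 to 0.11, adjusted p = 0.833) turned positive without siEzh2 sample 3.

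Fzd7 (chromosome 1 from 59482424 to 59486955, plus strand), close to Fzd1 and Fzd2 in sequence, had 17.5, 18.9 and 17.8 FPKM in controls and 14.7, 14.9 and 15.9 FPKM in siEzh2 samples. It was 1.19 times lower without overlap (adjusted p = 0.00835). Fzd4 (chromosome 7 from 89404355 to 89413134, plus strand), the Norrin receptor of retinal vessels, had 10.2, 9.54 and 9.38 FPKM in controls and 8.12, 8.0 and 8.14 FPKM in siEzh2 samples, 1.20 times lower (adjusted p = 0.00491). Fzd8 had 5.40, 5.16 and 5.17 FPKM in controls and 4.43, 4.35 and 4.75 FPKM in siEzh2 samples, 1.16 times lower (adjusted p = 0.0140). Each siEzh2 value of these 3 receptors was below each control value. Fzd5 had 3.33, 3.76 and 3.32 FPKM in controls and 3.58, 2.63 and 3.11 FPKM in siEzh2 samples. The Fzd5 groups overlapped (log2 fold change −0.13, 95% interval −0.35 to 0.09, adjusted p = 0.291), and 17.8% of its exon bases are shared with Gm38058 on the opposite strand.

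Among the receptors under 1 FPKM, Fzd3, known from axon guidance, had 111, 145 and 137 reads in controls and 77, 85 and 83 reads in siEzh2 samples. Its FPKM was 1.47 times lower with no overlap (limma-voom log2 fold change −0.56, adjusted p = 0.00277). Fzd10 had 8, 6 and 8 reads in controls and 12, 18 and 14 reads in siEzh2 samples. It was 2.17 times higher in FPKM, the reverse of the other called Frizzled receptors (limma-voom log2 fold change 1.06, adjusted p = 0.0341, and 0.0236 to 0.0341 over the alternatives). Fzd10 passed the limma-voom limit of 10 reads in 3 samples only through the siEzh2 group, where it is high. Fzd6 and Fzd9 were not called, at means of 0.176 and 0.139 FPKM for Fzd6 and 0.343 and 0.273 FPKM for Fzd9 in control and siEzh2 samples. Fzd10os stayed under 0.1 FPKM.

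**Figure D3:**
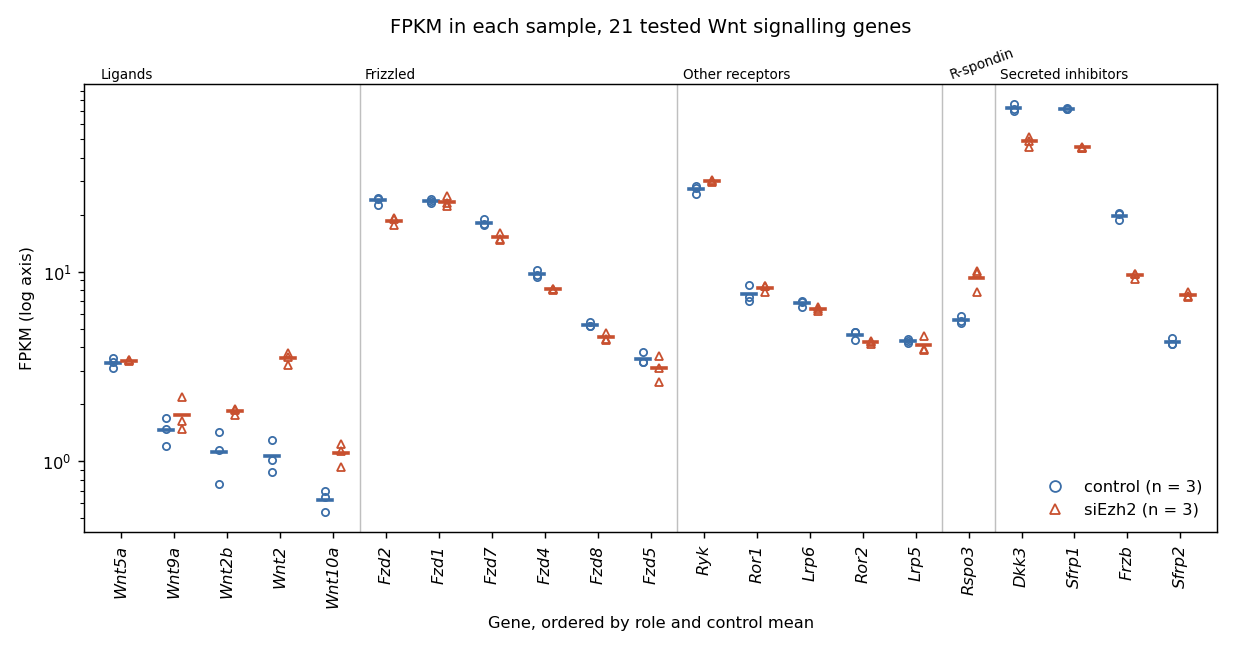
FPKM of the 21 tested genes (log y axis) in each sample, control samples as circles and siEzh2 samples as triangles with short lines at the group means, and genes ordered by role and control mean (x axis). The triangles of Wnt2 and Sfrp2 stand above their circles and those of Frzb, Dkk3 and Sfrp1 below theirs, while Fzd1, Wnt5a and Lrp5 overlap.

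The co-receptors and other Wnt receptors differed little. Ryk, a receptor with an inactive kinase domain that binds Wnt proteins through a Wif domain, had 25.6, 28.2 and 27.5 FPKM in controls and 30.0, 29.8 and 30.4 FPKM in siEzh2 samples. It was 1.11 times higher with no overlap (log2 fold change 0.14, SE 0.0445, adjusted p = 0.0391), a call close to the threshold. The Ryk call was lost with no filter (adjusted p = 0.0680), with the filter at 0.1 FPKM (0.0733), without control sample 1 or 3 (0.0863 and 0.0761) and without siEzh2 sample 1, 2 or 3 (0.0834, 0.0812 and 0.0959). Ryk lies on chromosome 9 from 102834917 to 102908305, plus strand.

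Lrp6, the co-receptor that is phosphorylated when a Wnt protein binds, had 7.0, 6.50 and 6.90 FPKM in controls and 6.21, 6.37 and 6.49 FPKM in siEzh2 samples. All siEzh2 values were just below the control values, and the log2 fold change was −0.08 (95% interval −0.18 to 0.01, adjusted p = 0.126). On recovered reads Lrp6 passed the limma-voom test as lower (adjusted p = 0.0314), and over all alternatives its adjusted p ran from 0.0314 to 0.290. Its paralogue Lrp5 had 4.29, 4.40 and 4.20 FPKM in controls and 3.84, 3.91 and 4.60 FPKM in siEzh2 samples, with overlap (adjusted p = 0.524).

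The tyrosine kinase-like receptors Ror1 and Ror2, which bind Wnt5a, were not called. Ror1 had 8.48, 7.02 and 7.35 FPKM in controls and 8.41, 8.37 and 7.80 FPKM in siEzh2 samples (log2 fold change 0.10, adjusted p = 0.301), and passed the test without control sample 1 (adjusted p = 0.0496). Ror2 had 4.83, 4.33 and 4.77 FPKM in controls and 4.25, 4.28 and 4.17 FPKM in siEzh2 samples (log2 fold change −0.11, adjusted p = 0.0920), and passed as lower without control sample 2 (adjusted p = 0.0340).

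The R-spondins moved in opposite directions. Rspo3, an R-spondin needed for vessel development, had 5.46, 5.83 and 5.35 FPKM in controls and 10.1, 9.80 and 7.81 FPKM in siEzh2 samples. Every siEzh2 value was above the control values, with siEzh2 sample 3 the nearest to them. Its mean was 1.66 times higher (log2 fold change 0.64, 95% interval 0.41 to 0.86, adjusted p = 0.00237). Rspo3 lies on chromosome 10 from 29452416 to 29535867, minus strand, and 13.1% of its exon bases are shared with Gm48159 on the opposite strand. Rspo2, its relative, had 0.835, 1.0 and 1.04 FPKM in controls and 0.693, 0.635 and 0.697 FPKM in siEzh2 samples. Its control mean of 0.960 FPKM was just under the filter, and on recovered reads it fell by 0.52 on the log2 scale (limma-voom, adjusted p = 0.0171, and 0.00683 to 0.0270 over the alternatives). Rspo3 made up 85.3% of the summed R-spondin FPKM in control and 93.1% in siEzh2 samples.

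Secreted inhibitors were the most abundant class. Their summed FPKM was 112 ± 3.02 after siEzh2 against 170 ± 2.94 in controls (SD, n = 3 each), 1.52 times lower. Of the 4 tested, Dkk3, Sfrp1 and Frzb were called lower and Sfrp2 was called higher, beside 22.7% and 24.1% of all tested genes. Dkk3 and Sfrp1 carried most of the sum, with 43.1% and 42.6% in control and 43.5% and 40.5% in siEzh2 samples.

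Sfrp1, a secreted protein with a Frizzled-like domain that binds Wnt proteins, had 72.0, 73.1 and 71.8 FPKM in controls and 44.9, 45.7 and 45.1 FPKM in siEzh2 samples. The groups were tight and well apart, 1.60 times lower in siEzh2 samples (log2 fold change −0.66, 95% interval −0.74 to −0.59, adjusted p = 5.79e-05). Sfrp1 lies on chromosome 8 from 23411502 to 23449632, plus strand. Frzb, also called Sfrp3, an antagonist first known from cartilage, had 20.1, 20.4 and 18.7 FPKM in controls and 9.77, 9.74 and 9.18 FPKM in siEzh2 samples. It was 2.06 times lower (log2 fold change −0.97, 95% interval −1.09 to −0.86, adjusted p = 6.20e-05), the greatest fall among the tested genes of the set. Frzb lies on chromosome 2 from 80411970 to 80447625, minus strand, and its promoter is the third printed above.

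Dkk3, a divergent Dickkopf protein whose part in Wnt signalling is less settled than that of Dkk1, had 76.6, 70.8 and 72.2 FPKM in controls and 51.4, 49.0 and 45.6 FPKM in siEzh2 samples. It was 1.50 times lower with no overlap (log2 fold change −0.58, 95% interval −0.72 to −0.44, adjusted p = 0.000562). Dkk3 lies on chromosome 7 from 112116017 to 112159057, minus strand. Sfrp2, a relative of Sfrp1, went the other way, with 4.14, 4.48 and 4.15 FPKM in controls and 7.48, 7.32 and 7.82 FPKM in siEzh2 samples. It was 1.77 times higher with no overlap (log2 fold change 0.70, 95% interval 0.60 to 0.80, adjusted p = 0.000116). Sfrp2 lies on chromosome 3 from 83766321 to 83774316, plus strand, and 16.1% of its exon bases are shared with Gm26771 on the opposite strand. From 2.51% of the summed inhibitor FPKM in control samples it came to 6.75% in siEzh2 samples, against 11.6% and 8.55% for Frzb.

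Of the inhibitors under 1 FPKM, Dkk2, which binds Lrp5 and Lrp6, had 10, 3 and 10 reads in controls and 30, 38 and 31 reads in siEzh2 samples. Its FPKM was 4.66 times higher, from 23 reads in all in control and 99 in siEzh2 samples, with no overlap (limma-voom log2 fold change 2.31, adjusted p = 2.28e-05, and at most 0.00321 over the alternatives). Even so, its highest value was 0.584 FPKM. Not every control sample had 10 reads of Dkk2, so it passed the limma-voom limit only with the siEzh2 samples, where it is high. Sfrp4 was not called, at means of 0.167 and 0.190 FPKM. Dkk1, Sfrp5 and Wif1 were under 0.1 FPKM in both groups.

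None of the 3 genes at the transcriptional end reached 1 FPKM. Tcf7, which encodes the factor TCF1, had 10, 4 and 13 reads in controls and 21, 18 and 25 reads in siEzh2 samples. It was 2.60 times higher in FPKM without overlap (limma-voom log2 fold change 1.44, adjusted p = 0.00461, and at most 0.0293 over the alternatives). Not every control sample had 10 reads of Tcf7, so it passed the limma-voom limit only with the siEzh2 samples, where it is high. Axin2, the widely used readout of beta-catenin signalling, had 36, 27 and 34 reads in controls and 12, 28 and 8 reads in siEzh2 samples. Its mean FPKM was 1.87 times lower, but siEzh2 sample 2 lay within the control range. The limma-voom call for Axin2 (log2 fold change −1.05, adjusted p = 0.0153) was lost under some alternatives, over which the adjusted p ran from 0.0153 to 0.187. Lef1 had 0, 2 and 3 reads in controls and 5, 12 and 6 reads in siEzh2 samples and was under 0.1 FPKM in both groups.

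**Figure D4:**
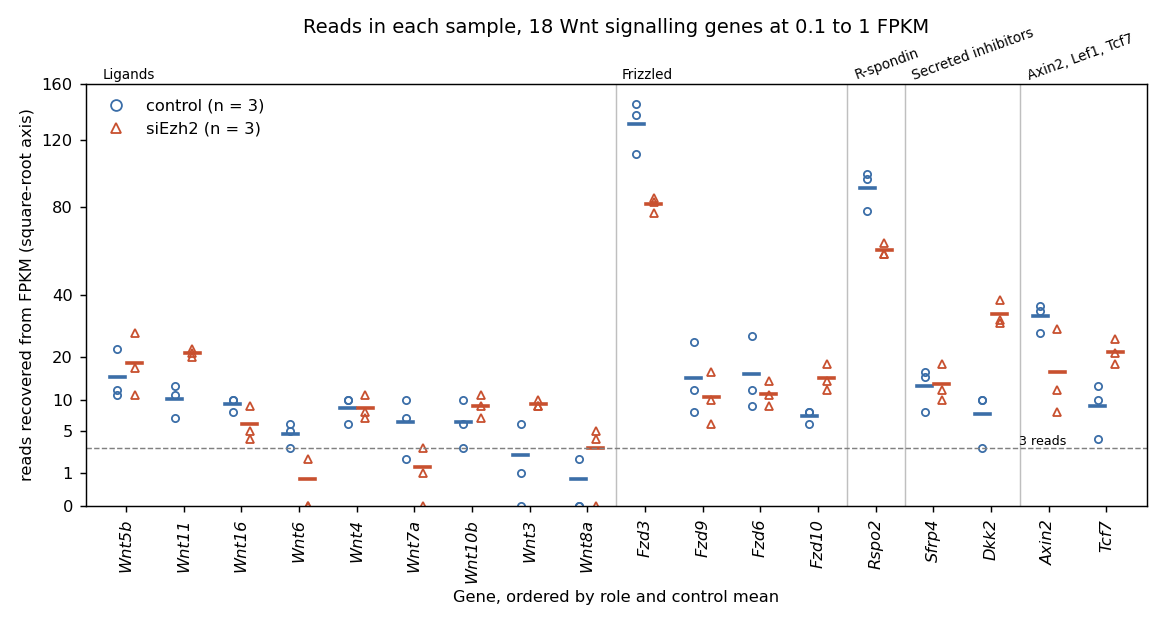
Reads recovered from FPKM in each sample (square-root y axis) for the 18 genes at 0.1 to 1 FPKM, ordered by role and control mean (x axis), control samples as circles and siEzh2 samples as triangles, with short lines at the group means and a dashed line at 3 reads. Dkk2, Tcf7 and Wnt11 are higher in every siEzh2 sample and Fzd3 and Rspo2 lower, while 1 siEzh2 sample of Axin2 lies among the controls.

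Over the 28 genes that did not reach the filter, limma-voom called 4 higher (Wnt11, Fzd10, Dkk2 and Tcf7) and 3 lower (Fzd3, Rspo2 and Axin2). It did not call 5 and could not test 16. Over all 33 genes of the set that it could test, 10 were higher and 11 were lower. Of all 14516 genes tested by limma-voom, 22.8% were higher and 23.5% were lower. Fzd10, Wnt11, Dkk2 and Tcf7 are among the 10 and passed the limit on reads only with the siEzh2 samples, where they are high. Axin2, among the 11, passed it only with the control samples, where it is high. The 10 genes under 0.1 FPKM in both groups had 0 to 12 reads per sample, and the limma fit with no filter gave an adjusted p of 0.238 for Lef1, whose groups did not overlap, and of 0.414 to 0.891 for the other 9, whose groups overlapped.

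Beyond the set, 93 other genes of the pathway were followed by step, of which 69 were tested, 19 were higher and 23 were lower, beside 24.1% and 22.7% of all tested genes, against which the counts by step below are also to be read. Of the 9 tested genes for Wnt secretion and surface cofactors, 5 were higher and 4 lower. These included glypicans, heparan sulfate proteoglycans that hold Wnt proteins at the cell surface. Gpc1 rose from 9.45 ± 0.406 to 20.8 ± 1.53 FPKM (adjusted p = 9.82e-05), Gpc6 fell from 8.67 ± 0.0333 to 5.38 ± 0.243 FPKM (adjusted p = 0.000140) and Gpc4 fell from 112 ± 3.95 to 76.5 ± 0.821 FPKM (adjusted p = 0.000179; SD, n = 3 each). Of the 3 tested genes of receptor turnover, 2 were higher. These were Lgr4, a receptor for R-spondins (4.29 to 6.47 FPKM, adjusted p = 0.000881), and Znrf3, a ligase that removes Frizzled receptors (1.39 to 1.88 FPKM, adjusted p = 0.0157). Apcdd1, another membrane-bound inhibitor, was lower (3.07 to 2.39 FPKM, adjusted p = 0.0103).

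Genes that act inside the cell were called in both directions. Of 21 Dishevelled and destruction complex genes, 3 were higher and 5 were lower. Ctnnb1, which encodes beta-catenin, fell from 81.4 ± 0.714 to 69.8 ± 1.06 FPKM (adjusted p = 0.00246; SD, n = 3 each), Tnks from 8.78 to 7.32 FPKM (adjusted p = 0.00238), and Dvl2 rose from 8.07 to 10 FPKM (adjusted p = 0.00310). Among 13 genes of the nuclear complex, 5 were higher and 3 were lower. The beta-catenin partners Bcl9l and Bcl9 went in opposite directions, Bcl9l from 24.3 to 18.6 FPKM (adjusted p = 0.00103) and Bcl9 from 4.16 to 5.34 FPKM (adjusted p = 0.00361), and Pygo2 rose from 20.1 to 23.5 FPKM (adjusted p = 0.00376). Of 12 tested genes of planar polarity and noncanonical signalling, 2 were higher and 3 were lower. The formin-like Daam2 fell from 11.2 to 8.38 FPKM (adjusted p = 0.000897) and the polarity gene Scrib rose from 8.25 to 10 FPKM (adjusted p = 0.00383). Nfatc1, a calcium-responsive transcription factor, rose from 2.55 to 3.35 FPKM (adjusted p = 0.0198), a call lost with no filter (0.0510) and without control sample 1 (0.0625).

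Genes commonly used as Wnt targets were called in both directions. Of the 11 tested, 3 were higher and 8 were lower, beside 24.1% and 22.7% of all tested genes. Cd44, the hyaluronan receptor, rose from 27.3 to 58.8 FPKM (2.15 times, adjusted p = 3.57e-05). Myc, a growth regulator, rose from 17.3 to 34.3 FPKM (1.98 times, adjusted p = 3.57e-05). Nkd2, a feedback inhibitor that binds Dishevelled, fell from 7.53 ± 0.0692 to 3.57 ± 0.293 FPKM (SD, n = 3 each), 2.11 times lower (adjusted p = 0.000101). Many of these genes also answer to other pathways. Apcdd1 and Znrf3, and the untested Lgr5, Rnf43 and Notum, each stand in 2 of the lists.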

How the data were processed

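RNA was measured in 3 control and 3 siEzh2 samples from stranded mRNA libraries. The authors deposited FPKM for each gene and sample, a unit named per the file headers. Cufflinks, HTSeq, HISAT2, Trimmomatic and the build mm10 appear in the submitters' processing notes, with no versions or order. Strand use in counting is not given in the sources used, which makes values uncertain for genes with an antisense overlap.

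Genes that reached a group mean of 1 FPKM were tested across the whole table with limma 3.58.1 (R 4.3.3, no covariate) on log2(FPKM + 1), siEzh2 minus control, with Benjamini-Hochberg adjustment over all tested genes and calls at an adjusted p under 0.05. SDs and ratios are of FPKM. The test was tried on simulated data with far fewer changed genes than were called here, so nothing is concluded from that trial. GENCODE M21 (same build) held 99.8% of the gene IDs and gave positions and exon lengths. FPKM multiplied by exon length gave reads, whole within 0.02 read for 98.4% to 98.5% of values under 1000 reads, which served limma-voom as an alternative (at least 10 reads in at least 3 samples, TMM scaling). Other alternatives were a pseudocount of 0.1, no filter, a filter at 0.1 FPKM, quantile normalization, trend and robust variance, the replicate number as a block, and leaving out each sample.

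Every tested member was named with its values, the other members from 0.1 FPKM with their level, and up to 3 called genes with the smallest p in each list of other pathway genes. Members, lists and markers were chosen with earlier results of these data known. Promoters came from RefSeq (GRCm38.p6). Other steps used Python 3.11.15 (matplotlib 3.10.9, scipy 1.17.1, numpy 2.4.6, pandas 2.3.3).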

Additional observations from a re-analysis of the deposited data

How the results depend on the processing

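Of the 49 genes, 6 were called higher and 7 lower in the fit reported. With the filter at 0.1 FPKM 10 of 39 tested genes were higher and 9 lower, beside 2776 and 2394 of all 18673 genes tested. Wnt3 is among those 10 and passed that filter only through the siEzh2 group, where it is high. Limma-voom on recovered reads, which could test more low genes, called 10 higher and 11 lower, beside 22.8% and 23.5% of all genes it tested. Leaving out each sample gave 4 to 6 higher and 7 to 8 lower. The median log2 fold change of the tested genes (−0.05) was −0.015 with the filter at 0.1 FPKM, −0.076 with quantile normalization and −0.029 by limma-voom, turned to 0.0104 with no filter, and ran from −0.098 to −0.014 over the leave-one-out fits. The sign turned for Wnt5a with quantile normalization (−0.0005) and without control sample 3 (−0.0069, with a highest leave-one-out value of 0.0605), and for Fzd1 without siEzh2 sample 3 (0.0220, with a lowest leave-one-out value of −0.0633). The cause was not tested. Over all genes, leaving out each sample gave 2309 to 2516 higher and 2156 to 2345 lower.

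Samples with the same replicate number correlated at 0.0243, 0.0695 and 0.0405 in their deviations from the group means. These values are low, yet every sample correlated best with its own number, a hint from the data and not from the design. Whether equal numbers share a culture is not given in the labels. With the replicate number as a block, 5 of the 49 genes were higher (Ryk was not called, adjusted p = 0.0681) and 7 lower, and over all genes 2564 were higher and 2385 lower.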
